A study of Mus musculus with 3 samples.

Results

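The background of Capture Hi-C (CHi-C) was described from the di-tags of which neither end lay in a captured region. A di-tag is a sequenced pair of ligated restriction fragment ends, and in CHi-C those that carry a chosen fragment are pulled out with RNA baits. A 10 kb bin on chromosomes 1 to 19 was taken as captured when its number of di-tag ends reached the 90th percentile of the covered bins in at least 1 library. Of 26794867 di-tags with duplicates removed, 8705368 (32.5%) had no captured end, 13890385 had 1 and 4199114 had 2. The members were thus chosen by end coverage, and their share and depth are descriptions without a test.

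The 3 libraries, Samples 3, 4 and 5, were made from mouse cells of the C57BL/6 strain labelled as embryonic stem cells, with no treatment or genetic change given. Formaldehyde-fixed chromatin was cut with HindIII, and the ends were marked with biotin before ligation. The source field of Sample 3 names foetal liver cells, whereas its cell type field and the paper name embryonic stem cells, and di-tags hold no expression marker that could be checked. Nothing states that the libraries came from separate cultures, so each p-value below measures only the spread between libraries, which may be technical.

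Unenriched Hi-C contacts carry a few general features of nuclear organisation. Contacts within a chromosome (cis) become rarer with genomic distance, and contacts between chromosomes (trans) are rarer still because each chromosome occupies its own territory. At the megabase scale, active, gene-rich stretches and inactive, gene-poor stretches each contact their own kind more often, which is known as the 2-compartment pattern. Mouse autosomes are acrocentric, with the centromere close to the end where the coordinates start.

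Sample 3 stood apart from the other libraries in most measures of the background, so results are given per library and, where the mean depends on it, also without Sample 3. Background di-tags made up 26.9% of Sample 3 (2520407 of 9376907), 34.8% of Sample 4 (2991604 of 8596799) and 36.2% of Sample 5 (3193357 of 8821161). The threshold for a captured bin was 178, 151 and 152 ends in Samples 3, 4 and 5, against a median of 47, 50 and 53 ends per covered bin. In the same order, 176, 227 and 257 bins held exactly the threshold number of ends, and 154, 225 and 237 bins held 1 end fewer. In all, 27896 of 227422 covered bins (12.3%) were captured. Di-tags with an end on chromosome X, Y or MT, where no bin was called, were set aside (670432 of the members), which left 2291190, 2781652 and 2962094 autosomal background di-tags.

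Background di-tags were duplicated far less than captured ones. With duplicates retained, a background di-tag had on average 2.20, 1.81 and 1.79 copies in Samples 3, 4 and 5 (mean 1.93 ± 0.233, SD, n = 3 libraries). Di-tags with 1 captured end had 8.74, 7.56 and 6.92 copies, and those with 2 had 9.64, 8.28 and 7.54. The groups did not overlap, but the rule chose them by end coverage in the same libraries, so no test was made. Bins just below the threshold contributed much of the background. Between 49.8% and 56.3% of its autosomal di-tags had an end in a bin between the 80th and the 90th percentile. Those di-tags had 2.75, 2.26 and 2.23 copies, against 1.49, 1.35 and 1.34 for the remaining ones. This band was itself set by end coverage, so its large share follows in part from its definition, and both results are descriptions.

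Cis contacts were 46.1% of the background in Sample 3, 32.3% in Sample 4 and 28.4% in Sample 5 (mean 35.6% ± 9.33, SD, n = 3, or 30.3% without Sample 3). Di-tags with 1 captured end were cis in 45.9%, 27.2% and 23.2%, and those with 2 captured ends in 63.1%, 55.8% and 51.9%. The cis share of the background was 1.00, 1.19 and 1.22 times that of di-tags with 1 captured end. Relative to di-tags with 2 captured ends it was 0.731, 0.579 and 0.547 times as high, which was lower in 3 of 3 libraries. The exact sign-flip permutation test over libraries gave a two-sided p of 0.25 for either ratio, the smallest that 3 libraries allow. The rule itself bears on these ratios, because a di-tag with both ends in the same 10 kb bin cannot have exactly 1 captured end. When cis di-tags shorter than 20 kb were left out, the cis share was 43.5%, 24.7% and 20.8%, and its ratio to that of di-tags with 1 captured end was 0.972, 1.03 and 1.02 (exact sign-flip permutation test, two-sided p = 1). Against di-tags with 2 captured ends it was 0.751, 0.647 and 0.628, again lower in 3 of 3 libraries. These shares do not correct for the number of possible bin pairs at each distance, which the rule also sets. Per possible pair and relative to trans, the background at 110 kb was at 508, 422 and 329, against 751, 566 and 439 with 2 captured ends. Near 1125 kb it was lower only in Sample 3 (73.1 against 93.3). In Samples 4 and 5 it was higher there (37.3 and 27.7 against 30.5 and 25.1). Di-tags shorter than 20 kb made up 10.2% of the cis background in Sample 3 but 31.2% and 33.9% in Samples 4 and 5. The median cis distance was 4994 kb in Sample 3, against 204 kb and 169 kb.

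Contacts fell with distance in every library, and in Sample 3 the fall was slower between 500 kb and 10 Mb. To compare distances, the number of cis di-tags per possible pair of uncaptured 10 kb bins was divided by the same density in trans. At 0.11 Mb, cis contacts were 508, 422 and 329 times as dense as trans contacts in Samples 3, 4 and 5. At 0.89 Mb they were 91.5, 53.0 and 39.9 times as dense. At 8.96 Mb the values were 19.8, 3.59 and 2.85, so Sample 3 was 5.51 times above Sample 4 and 6.94 times above Sample 5. The curve of Sample 3 crossed those of the other libraries near both ends of the range. At 10 kb it was below them, at 4018 against 6463 and 5622, and at 111 Mb it was below them again, at 0.985 against 1.07 and 1.09. At 169477 kb, where Sample 3 held 303 contacts, the values were 0.778, 0.994 and 1.02.

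The slope of log10 contacts on log10 distance between 500 kb and 10 Mb was -0.72 in Sample 3, -1.26 in Sample 4 and -1.24 in Sample 5 (mean -1.07 ± 0.305, SD, n = 3, or -1.25 without Sample 3). Di-tags with 1 captured end had slopes of -0.79, -1.23 and -1.20. The mean difference between background and di-tags with 1 captured end was 0.00072 ± 0.0606 (exact sign-flip permutation test, two-sided p = 1). Against di-tags with 2 captured ends it was -0.0755 ± 0.114 (two-sided p = 0.5 in the same exact test), with the background shallower in Sample 3 and steeper in Samples 4 and 5. Between 100 kb and 1 Mb the background was shallower than di-tags with 1 captured end in 3 of 3 libraries, by 0.133 ± 0.0592 on average, which the exact sign-flip permutation test gave a two-sided p of 0.25. Between 5 and 20 Mb the background slopes averaged -0.325 ± 0.00462 over the 3 libraries. After the trans density was subtracted they were -0.34, -0.45 and -0.51 in Samples 3, 4 and 5 (mean -0.435 ± 0.0877), so the small spread held only without the subtraction.

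**Figure D1:**
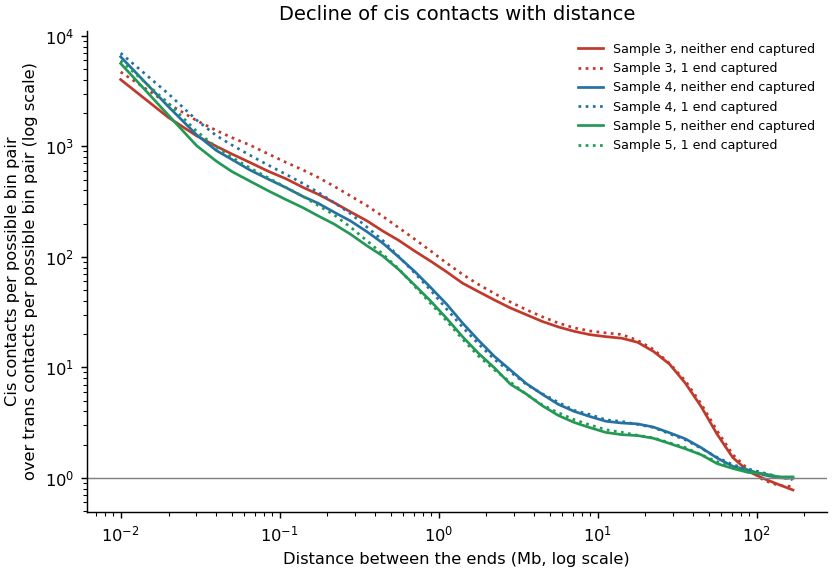
Cis contacts per possible 10 kb bin pair relative to trans, plotted against distance in Mb on log axes, with a solid line for the background and a dotted line for di-tags with 1 captured end in each library. On this scale the background of Sample 3 lies above that of Samples 4 and 5 at 0.11, 0.89, 8.96, 17.9 and 44.8 Mb, by 5.51 and 6.94 times at 8.96 Mb. It is below both at 111 Mb, where the values are between 0.985 and 1.09.

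To look for compartments, contacts were counted between 1 Mb bins at least 2 Mb apart and divided by the number expected from both bins' ends and their distance. Of 2482 bins, the 2313 with at least 50% of their 10 kb bins covered and uncaptured were used. On each chromosome the sign of the first eigenvector of the correlation matrix set 2 classes. The class with the higher captured share was called capture-rich and the other capture-poor, since no gene annotation of the build of the files, mm9, was at hand. Over the pooled libraries 1110 bins were capture-rich and 1203 capture-poor, in 737 uninterrupted stretches with a mean length of 3.14 Mb. The captured share of the 10 kb bins was 17.3% in capture-rich and 5.33% in capture-poor bins. The order of these is fixed by the naming, but the size is not. Across bins, the eigenvector correlated with the captured share with r from 0.583 to 0.768 on 18 chromosomes, as a description, since bins of 1 library share depth and neighbours. On chromosome 7 r was 0.0398 and the captured share was 14.3% against 12.5%, so its classes carry no such orientation. The first eigenvector held a median of 7.94% of the variance, from 4.50% to 22.1% over chromosomes.

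The pattern was weak in a single library. Eigenvectors of the libraries taken alone correlated with r = 0.340 between Samples 3 and 4, 0.238 between Samples 3 and 5 and 0.193 between Samples 4 and 5 (n = 2313 bins). Between pairs of libraries 60.7%, 57.2% and 54.5% of bins had the same class, in the same order. In 777 bins (33.6%) each of the 3 libraries alone had the class of the pooled libraries. The pooled eigenvector followed Sample 3 most closely, with r = 0.841, against 0.434 and 0.295 for Samples 4 and 5. Above 2 Mb Sample 3 held 629113 cis background di-tags, Sample 4 258599 and Sample 5 242238. The library with the most di-tags at this range also weighed most in the pooled classes, and its part in the order of the correlations was not tested.

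For a test, each library was measured with classes made from the other libraries, so that its own contacts did not set the classes, although all 3 libraries had set which bins were captured. Observed over expected contacts between bins of the same class were 1.10 times those between bins of different classes in Sample 3 (95% interval from counting error 1.09 to 1.10), 1.12 times (1.11 to 1.13) in Sample 4 and 1.11 times (1.10 to 1.12) in Sample 5. The mean was 1.107 ± 0.0109 (SD, n = 3), above 1 in 3 of 3 libraries, and the exact sign-flip permutation test gave a two-sided p of 0.25, the smallest possible. Without Sample 3, with each remaining library measured on classes made from the other alone, the mean was 1.03, and with the 80th percentile for captured bins it was also 1.03. The ratios of the 3 libraries are not set against each other, since each library had its own set of classes. The classes used for Sample 3, made from Samples 4 and 5, correlated less with the captured share (r = 0.382, n = 2313 bins) than those used for Sample 4 (0.606) and Sample 5 (0.622). Contacts within the capture-rich class averaged 1.05 times the expected number, those within the capture-poor class 1.05 times, and those between the classes 0.947 times. This did not hold at every distance. At 50 to 200 Mb the capture-poor class averaged 0.983, against 0.982 between the classes, and the libraries differed in direction. Sample 3 was at 1.007 within the capture-poor class against 0.977 between the classes. Samples 4 and 5 were at 0.967 and 0.975 within it, against 0.986 and 0.984. At 2 to 5 Mb the capture-rich class of Sample 5 was at 0.977. By distance, the ratio at 2 to 5 Mb was 1.09, 1.17 and 1.18 in Samples 3, 4 and 5 (mean 1.15 ± 0.0504), and the mean was 1.13 at 5 to 10 Mb and at 10 to 20 Mb, 1.11 at 20 to 50 Mb and 1.04 at 50 to 200 Mb. Sample 3 did not fall over the shorter distances, with 1.09, 1.11, 1.11 and 1.09 up to 50 Mb, and 1.04 beyond. The means of Samples 4 and 5 over the same steps were 1.18, 1.14, 1.14, 1.12 and 1.03. The same classes gave 1.08, 1.11 and 1.09 in cis di-tags with 1 captured end. Classes by captured share, which rest on the coverage that chose the members and were added after seeing the data, gave 1.19, 1.11 and 1.10 in the background, as a description and not as support.

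**Figure D2:**
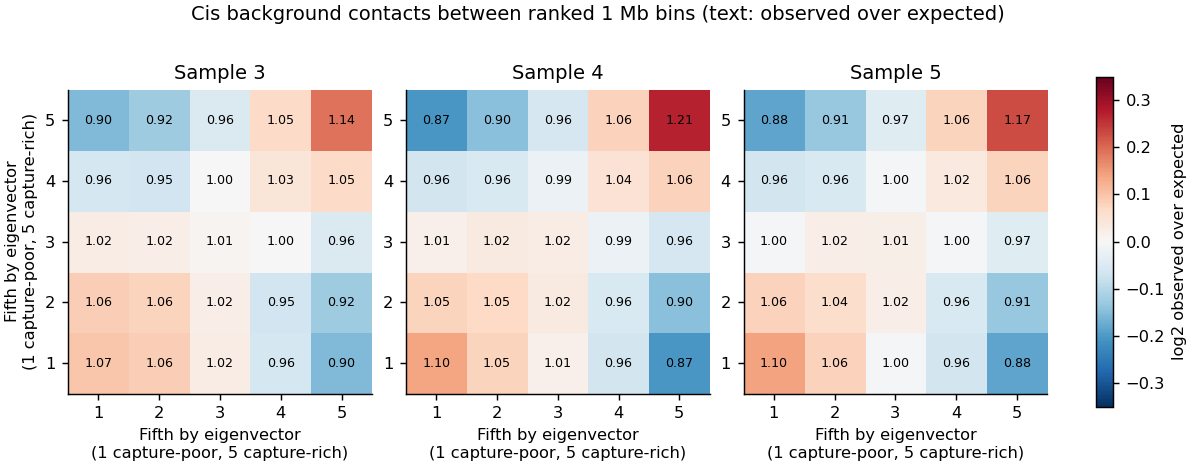
Mean observed over expected cis contacts of the background in each library, with 1 Mb bins in 5 equal ranks by the eigenvector of the other libraries, from the most capture-poor to the most capture-rich. The 2 corners of like bins are above 1 in each library (1.14, 1.21 and 1.17 for capture-rich, 1.07, 1.10 and 1.10 for capture-poor) and the corners of unlike bins are below 1 (0.899, 0.868 and 0.880).

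The most extreme bins whose class in all 3 libraries was that of the pooled libraries serve as examples of each side. On the capture-rich side they were chr2:91000001-92000000 (29.8% of its 10 kb bins captured, eigenvector 2.66 SD of its chromosome), chr1:88000001-89000000 (20.9%, 2.57 SD) and chr1:133000001-134000000 (24.5%, 2.46 SD). On the capture-poor side they were chr3:76000001-77000000 (0% captured, -2.02 SD), chr5:83000001-84000000 (2.13%, -1.95 SD) and chr3:106000001-107000000 (12.1%, -1.90 SD). The last of these had the highest captured share of the named capture-poor bins, but its class was weak. Its eigenvector values in Samples 3, 4 and 5 alone were -0.041, -0.0023 and -0.149, so its class in Sample 4 rested on a value near 0. On chromosome 3 the first eigenvector also held the smallest share of the variance, at 4.50%. No general relation between class and captured share is drawn from this bin.

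The ratio varied between chromosomes, and the differences between chromosomes were not tested. On 17 of 19 chromosomes the ratio was above 1 in all 3 libraries, and the exceptions were chromosomes 4 and 12, each at 0.995 in Sample 3. On average it was highest on chromosome 11, at 1.20, 1.19 and 1.20 in Samples 3, 4 and 5 (mean 1.19 ± 0.00623), followed by chromosome 6 at 1.20, 1.15 and 1.19 (mean 1.18 ± 0.0288). It was lowest on chromosome 8, at 1.00, 1.06 and 1.03 (mean 1.03 ± 0.0302), and on chromosome 7, at 1.01, 1.04 and 1.08 (mean 1.04 ± 0.0332). This order depended on the classes. With classes by captured share, again as a description, chromosome 5 had the highest mean ratio (1.21, against 1.11 with the held-out classes). Chromosome 16 then had the lowest (1.10, against 1.18), and chromosome 7 was at 1.17, 1.16 and 1.13 (mean 1.15).

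**Figure D3:**
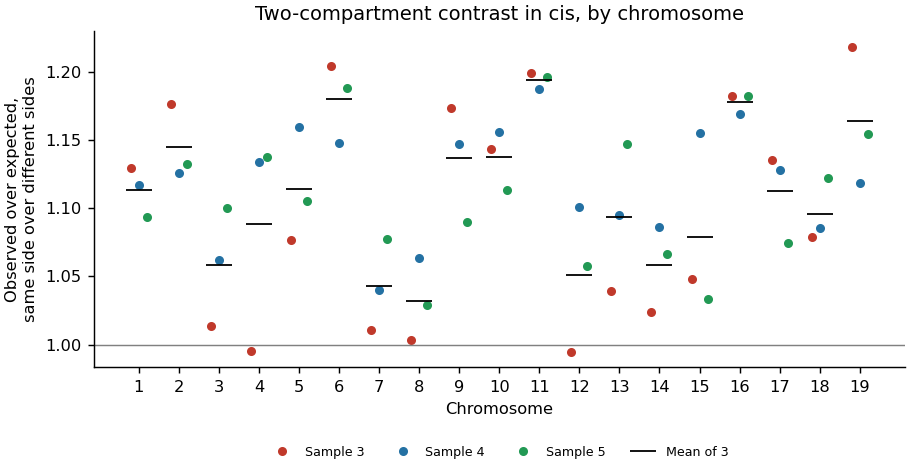
Cis same-class over different-class ratio of observed over expected background contacts for each autosome, with 1 point per library and classes from the other libraries. The points of chromosome 11 lie between 1.19 and 1.20 and those of chromosome 8 between 1.00 and 1.06, and the only points below 1 are those of chromosomes 4 and 12 in Sample 3.

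In trans the classes made no difference that all 3 libraries shared, although the background of Samples 4 and 5 was below 1 with each set of classes. With classes from the pooled cis contacts, which use no trans di-tag, the ratio of same to different class was 1.03 in Sample 3, 0.982 in Sample 4 and 0.986 in Sample 5 (mean 1.00 ± 0.0268, exact sign-flip permutation test, two-sided p = 1). Sample 3 was above 1 and both other libraries were below it. The 95% intervals from counting error were 1.027 to 1.034, 0.979 to 0.985 and 0.983 to 0.989 in Samples 3, 4 and 5. However, the pooled classes followed Sample 3 most closely. They also include chromosome 7, whose classes carry no orientation by captured share. With classes from the cis contacts of the other libraries, the ratio was 1.005 in Sample 3 and 0.984 in both Sample 4 and Sample 5 (mean 0.991 ± 0.0125, exact sign-flip permutation test, two-sided p = 0.5). With classes by captured share the values were 1.02, 0.968 and 0.974. For trans di-tags with 1 captured end and the pooled classes they were 1.04, 0.996 and 1.00. The trans background held 1233894, 1883407 and 2121249 di-tags.

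Position along the chromosome showed a trans preference that was far larger in Sample 3 than in the other libraries. Each chromosome was divided into 5 equal segments from its proximal (centromeric) to its distal end, and bins on different chromosomes were compared after correction for each bin's own trans ends. Contacts between proximal segments were 1.30, 1.03 and 1.02 times the expected number in Samples 3, 4 and 5. Distal segments met each other at 1.24, 1.02 and 1.01 times the expected number, and proximal and distal segments at 0.807, 0.981 and 0.986 times. The ratio declined with each step between segments in all 3 libraries, from 1.14, 1.01 and 1.01 for the same segment to 0.807, 0.981 and 0.986 for opposite ends. Like ends over opposite ends gave 1.58, 1.05 and 1.03 (mean 1.22 ± 0.311, SD, n = 3, or 1.04 without Sample 3), above 1 in each of the 3 libraries, as a description. Trans di-tags with 1 captured end gave 1.77, 1.06 and 1.04, with the same order of libraries.

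**Figure D4:**
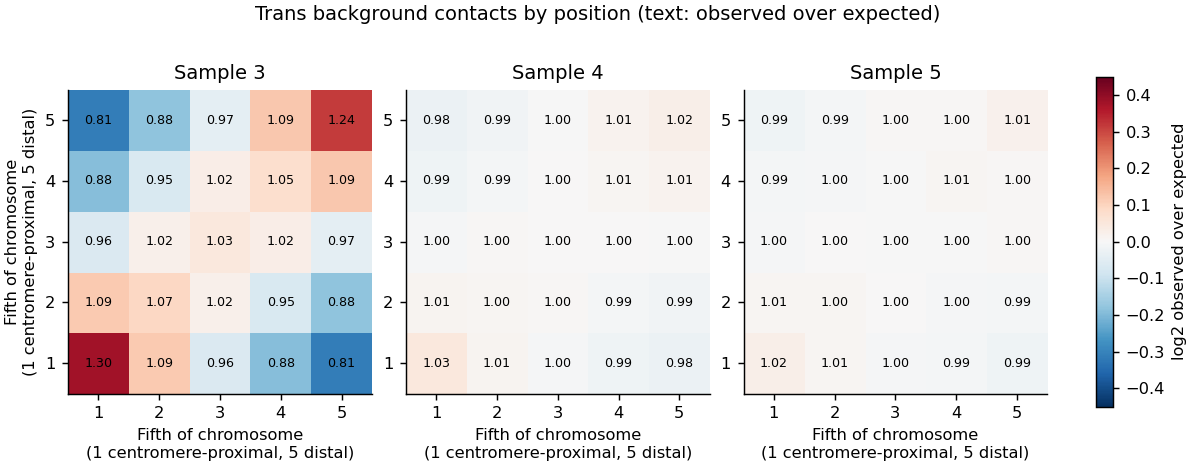
Observed over expected trans contacts of the background between the 5 segments of the chromosomes, from proximal to distal, in each library. Like ends exceed 1 and opposite ends are below 1 in all 3 libraries, by far the most in Sample 3 (proximal with proximal 1.30, proximal with distal 0.807).

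No preference of a pair of chromosomes passed the test over the 3 libraries. For each pair of the 19 autosomes, trans contacts were divided by the number expected from the trans ends of both chromosomes. With limma, 0 pairs (0%) passed a Benjamini-Hochberg adjusted p of 0.05. The smallest adjusted p was 0.488, and 11 pairs had an unadjusted p under 0.05. An exact Poisson test per library called 0 pairs in all 3 libraries. The mean log2 ratio of observed over expected was at most 0.0374 in size. Of all pairs, 24 (14%) were above expectation in all 3 libraries and 18 (10.5%) were below it. Between libraries the log2 ratios of the pairs correlated with r = 0.115 (Samples 3 and 4), -0.0453 (3 and 5) and 0.151 (4 and 5), as a description over all pairs, which share chromosomes.

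Of the 5 pairs that were furthest above expectation in their weakest library, 4 joined chromosomes between 15 and 19. Chromosomes 16 and 18 met at 1.03, 1.02 and 1.02 times the expected number in Samples 3, 4 and 5 (mean log2 ratio 0.034, limma adjusted p = 0.488). The others were 16 with 17, 18 with 19, 15 with 17 and 8 with 15, with mean log2 ratios between 0.020 and 0.032. The furthest below expectation was chromosome 1 with 19, at 0.961, 0.980 and 0.989 (mean log2 ratio -0.034, limma adjusted p = 0.488), followed by 5 with 18, 3 with 14, 3 with 16 and 2 with 15, with mean log2 ratios between -0.019 and -0.016. None of the 10 passed the test. Among chromosomes 15 to 19, the pairs 15 with 16 and 16 with 19 were below expectation on average (mean log2 ratios -0.0011 and -0.0048). The median 95% interval of a pair, from the spread between libraries, reached 0.0198 to either side on the log2 scale before adjustment for the number of pairs.

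Sample 3 again held more structure. The variance of its pairs was 2.19 times what counting alone gives (chi-square over 152 degrees of freedom), against 0.939 in Sample 4 and 1.26 in Sample 5. The SD of the log2 ratio over pairs was 0.0255 in Sample 3, against a counting SD of 0.0180, and 0.0132 and 0.0141 in Samples 4 and 5, against 0.0147 and 0.0138. The exact Poisson test in Sample 3 alone called 3 pairs above expectation (1.75%), chromosomes 1 with 2, 3 with 7 and 15 with 19, and 1 pair below it (0.585%), 1 with 18. Their log2 ratios in Sample 3 were 0.05, 0.05, 0.09 and -0.05, and in Samples 4 and 5 none was more than 0.02 from 0. This test compares contacts within 1 library and not libraries. By length, pairs among the 5 shortest chromosomes had a mean log2 ratio of 0.0395, 0.0114 and 0.0056 in Samples 3, 4 and 5, pairs among the 5 longest 0.0166, 0.0022 and 0.0039, and pairs of a short with a long one -0.0266, -0.0051 and -0.0002. The order was the same in all 3 libraries, and the length grouping was chosen after the ratios were seen.

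**Figure D5:**
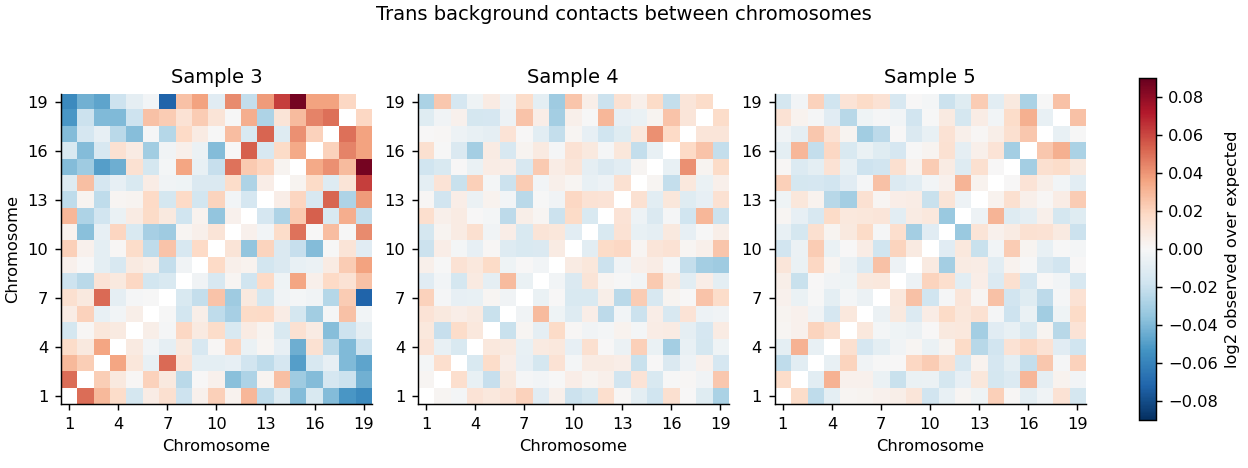
Log2 observed over expected trans contacts of all chromosome pairs in each library, with 1 colour scale for all, chromosomes on both axes. Sample 3 spreads from -0.0717 to 0.0863 and Samples 4 and 5 lie close to their counting SD of 0.0147 and 0.0138.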

How the data were processed

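For Samples 3, 4 and 5 the authors deposited lists of di-tags that had passed HiCUP, with duplicates retained (67919330, 49196723 and 45868446) and with duplicates removed (9376907, 8596799 and 8821161). A line of the deposited lists is 1 di-tag, with chromosome, position and strand for either read, and lines were counted. HiCUP cut reads at the ligation junction, mapped both ends separately, kept unique alignments and discarded artefact di-tags. The submitters' processing notes name Bowtie 1.1.0 and mm9. The lists with duplicates removed were used, except for copies and 1 alternative. The members, classes and lists were chosen with earlier results of these data known.

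Di-tags were counted in Python 3.11.15 (numpy 2.4.6, pandas 2.3.3, scipy 1.17.1). Bin factors were fitted iteratively to each library's own contacts, with distance groups in cis. Di-tags with 1 captured end had separate factors for their captured and uncaptured ends. Intervals cover counting error only, since the di-tags carry no molecular identifier. Ratios and differences taken within each library were tested over the 3 libraries with exact two-sided sign-flip permutation tests, on the log2 ratio or the difference. The chromosome pairs were tested over the libraries with limma 3.58.1 in R 4.3.3. No test compared Sample 3 with the other libraries. The chromosome pairs were tested on log2 ratios, with an exact Poisson test on the counts of each library as an alternative. The compartment and chromosome pair calculations were tested on simulated data. Of 171 simulated pairs 16 were shifted, by at most 1.1-fold, and limma recovered 16 with 0 false calls. In the data the mean log2 ratio of a pair was at most 0.0374 in size, and shifts that small were not simulated. Named pairs were the 5 with the highest smallest and the 5 with the lowest largest log2 ratio of the 3 libraries. Named chromosomes had the 2 highest and the 2 lowest mean ratios, and named bins the 3 most extreme eigenvector values in each class. Chosen after seeing the data were the classes by captured share, the subtraction of trans density and the position results without a library or at other percentiles. The grouping of chromosome pairs by length was also chosen after the ratios were seen. Neither HindIII fragments nor the bait design were used, and no gene was named.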

Additional observations from a re-analysis of the deposited data

How the results depend on the processing

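The share of background di-tags depended directly on what was called captured. As a mean over libraries it was 32.6% with the main settings, against 32.5% of all di-tags pooled. This mean was 16.4% with the 80th percentile, 49.8% with the 95th, 44.2% when a bin had to be captured in all 3 libraries and 38.9% with 20 kb bins. It was from 32.1% to 38.0% when 1 library was left out of the calling. The mean cis share of 35.6% fell to 29.7% when cis di-tags shorter than 20 kb were left out. It was from 35.8% to 36.9% at other percentiles, with bins captured in all 3 libraries or with duplicates retained. Without 1 library it was from 30.3% to 39.2%. All of these lay within the SD over libraries of 9.33, but that SD is a wide measure, since without Sample 3 it was 2.76. The decay slope of -1.07 became -0.55 between 2 and 50 Mb and ranged from -1.25 to -0.98 without 1 library. The cis same-class ratio of 1.107 stayed above 1 in every alternative run. It was 1.58 with the expected number from distance and uncaptured bins, which does not correct for the ends of a bin. It was 1.09 for bins at least 10 Mb apart, 1.13 with classes by captured share, 1.08 with 500 kb or 2 Mb bins, 1.03 with the 80th percentile and 1.14 with the 95th. Without 1 library it was from 1.03 to 1.08, with classes then made from 1 library. The trans ratio of 1.00 lay on the other side of 1 with 500 kb bins (1.001) and the 95th percentile (1.005), and from 0.993 to 1.009 without 1 library. The position ratio kept its direction, from 1.04 without Sample 3 to 1.31. For chromosome pairs, 37 (21 above and 16 below expectation) were called when the expected number came from uncaptured bins, which leaves differences in trans ends between chromosomes in the ratio, and 0 under the other alternatives. No paired analysis was possible between groups of samples because all libraries belong to 1 group, and kinds of di-tag were compared within each library. What depth limits in the classes of a single library was not tested.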

Other observations

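Chromosome 8 carried a different density of background ends in Sample 3 than in the other libraries. Ends per uncaptured 10 kb bin on chromosome 8, relative to the median autosome, were 0.855 in Sample 3, 1.14 in Sample 4 and 1.15 in Sample 5, the lowest autosome in Sample 3 and the highest in the other libraries. Its cis share in Sample 3 was also the lowest, at 42.4%, against 48.9% on chromosome 2. In Sample 4 the cis share ran from 29.8% on chromosome 15 to 34.4% on chromosome 2, and in Sample 5 from 25.5% on chromosome 19 to 30.5% on chromosome 1. The spread between chromosomes was thus smaller than the difference between Sample 3 and the other libraries.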
